A study of Mus musculus with 12 samples.

Results

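Messenger RNAs of 9 factors that make and trim replication-dependent histone transcripts were followed in the embryonic mouse pallium: Npat, Casp8ap2, Slbp, Lsm10, Lsm11, Cpsf2, Cpsf3, Sympk and Cstf2. They were chosen by name for their known roles, and 9 of 9 were found among the 54735 gene symbols of each library. The tissue was dorsal telencephalon of C57/Bl6 embryos at E13.5, the dorsal forebrain from which the cortex grows. There were 12 embryos, 4 per genotype, and each carried Emx1-Cre, a recombinase expressed in pallial progenitors, so cells that do not express it keep intact floxed alleles. Control embryos were Rnu11wt/flx::Trp53wt/wt, so they too could lose 1 of their Rnu11 copies. The cKO embryos were Rnu11flx/flx::Trp53wt/wt and the dKO embryos were Rnu11flx/flx::Trp53flx/flx. Rnu11 encodes the U11 snRNA of the minor spliceosome, and Trp53 encodes p53. The labels number the embryos and say nothing of litters, so every p-value here measures the spread between these samples.

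Replication-dependent histone mRNAs are made in S phase, when newly copied DNA is packed into nucleosomes, and they are the metazoan mRNAs that end in a stem-loop in place of a poly(A) tail. NPAT, a substrate of cyclin E and CDK2, drives their transcription in the histone locus body. SLBP holds the stem-loop, the U7 snRNP with its special ring proteins LSM10 and LSM11 pairs with the RNA downstream of it, and FLASH, the product of Casp8ap2, binds LSM11. Together they bring in a cleavage complex that is shared with polyadenylation, in which CPSF3 is the nuclease, CPSF2 its catalytically inactive partner, symplekin (Sympk) the scaffold and CSTF2 an associated RNA-binding subunit. Cycling progenitors of the embryonic cortex rely on this machinery at each division.

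The promoter stretches of Npat, Casp8ap2 and Slbp are shown because these 3 hold most of the cell-cycle promoter words found among the 9 genes. They come from RefSeq on GRCm38.p6, in which an entry was found for 9 of 9 factors, and they are written 5′ to 3′ on the gene's strand, ending at the base before its annotated start. The Npat stretch is chr9:53536797-53537046 on the plus strand, the Casp8ap2 stretch is chr4:32615220-32615450 on the plus strand, and the Slbp stretch is chr5:33652575-33652824 on the minus strand. Capitals mark the CCAAT box, searched as CCAAT, and E2F words, searched as TTGGCGC, with the variant TTCCCGC, with the variant TTCGCGC, or with the variant TTGCCGC, on both strands.
Npat: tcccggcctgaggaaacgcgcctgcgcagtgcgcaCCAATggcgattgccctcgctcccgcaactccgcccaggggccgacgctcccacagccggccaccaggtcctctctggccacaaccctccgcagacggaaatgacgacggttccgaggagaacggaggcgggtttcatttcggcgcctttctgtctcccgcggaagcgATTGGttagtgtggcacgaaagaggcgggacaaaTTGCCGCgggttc
Casp8ap2: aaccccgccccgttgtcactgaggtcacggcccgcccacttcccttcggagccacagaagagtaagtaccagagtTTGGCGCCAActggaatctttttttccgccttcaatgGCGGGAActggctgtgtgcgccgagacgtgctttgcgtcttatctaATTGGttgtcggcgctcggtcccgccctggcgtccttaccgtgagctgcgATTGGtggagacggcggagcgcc
Slbp: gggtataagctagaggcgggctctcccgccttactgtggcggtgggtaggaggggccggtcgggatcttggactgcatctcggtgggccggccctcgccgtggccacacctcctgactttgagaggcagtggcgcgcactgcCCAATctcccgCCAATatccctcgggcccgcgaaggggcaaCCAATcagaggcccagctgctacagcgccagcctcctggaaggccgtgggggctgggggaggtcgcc
In the 250 bases before the RefSeq start, Slbp held 3 CCAAT boxes, Npat 2, Casp8ap2 2 and Lsm10 1, which makes 4 of 9 factors against 33.8% of 32851 mouse promoters. E2F words were found 3 times in Casp8ap2, with 2 of the 3 overlapping on opposite strands, and once each in Npat and Cpsf2, which makes 3 of 9 factors against 7.89% of promoters. A TATA box, searched as TATAAA, was found in 0 of 9, against 12.4% of promoters. A match describes letters and does not show that a factor binds.

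The values are TPM, which scale transcript abundance for gene length and to a fixed library sum. Log2 differences between groups are differences in log2(TPM + 1), a scale that understates fold changes of low genes. The depth of the libraries is unknown, so no counting error is given. Rnu11 stood 2.14 lower in cKO and 1.96 lower in dKO than in control on the log2 scale, with no overlap (exact two-sided permutation p = 0.0286 each, the smallest that 4 against 4 allows, 0.0429 after adjustment over 6 tests). Trp53 in dKO stood 1.06 below control and 1.24 below cKO (exact permutation p = 0.0286, adjusted 0.0429). The pallial identity genes Emx1, Emx2, Pax6 and Lhx2 were present, each above a mean of 1 TPM. A shift common to most genes set cKO apart from the other groups. Over the 11764 genes that averaged 1 TPM or more, the median log2 difference from control was 0.25 (cKO) and -0.01 (dKO), and dKO lay at -0.26 from cKO. Each difference is therefore given as deposited and, where stated, after median-shift centring, which moves a library by its median log2 distance from the average library. That distance was uneven within cKO, at 0.076, 0.20, 0.079 and 0.32 in embryos 1 to 4. It was -0.021, -0.16, -0.078 and -0.070 in control and -0.13, -0.062, -0.088 and -0.13 in dKO. In whole tissue, fewer cells of a type and less RNA per cell cannot be told apart.

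All 9 factors passed the filter of a mean of 1 TPM. The order of their levels, as means of 12 embryos, was Slbp at 28.7 TPM, Cpsf3 at 8.76, Cstf2 at 6.28, Casp8ap2 at 6.28, Cpsf2 at 4.53, Sympk at 4.45, Npat at 3.01, Lsm10 at 2.81 and Lsm11 at 1.61. Some neighbours in this order were not separated. Cstf2 exceeded Casp8ap2 in 6 of 12 embryos, Cpsf2 exceeded Sympk in 8 of 12, and Npat exceeded Lsm10 in 7 of 12. Every other neighbour pair kept its order in 12 of 12 embryos. Slbp mRNA was thus the most abundant of the set in every embryo, and it ranked at the 89.3rd percentile of tested genes, whereas Lsm11 ranked at the 13.8th.

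**Figure D1:**
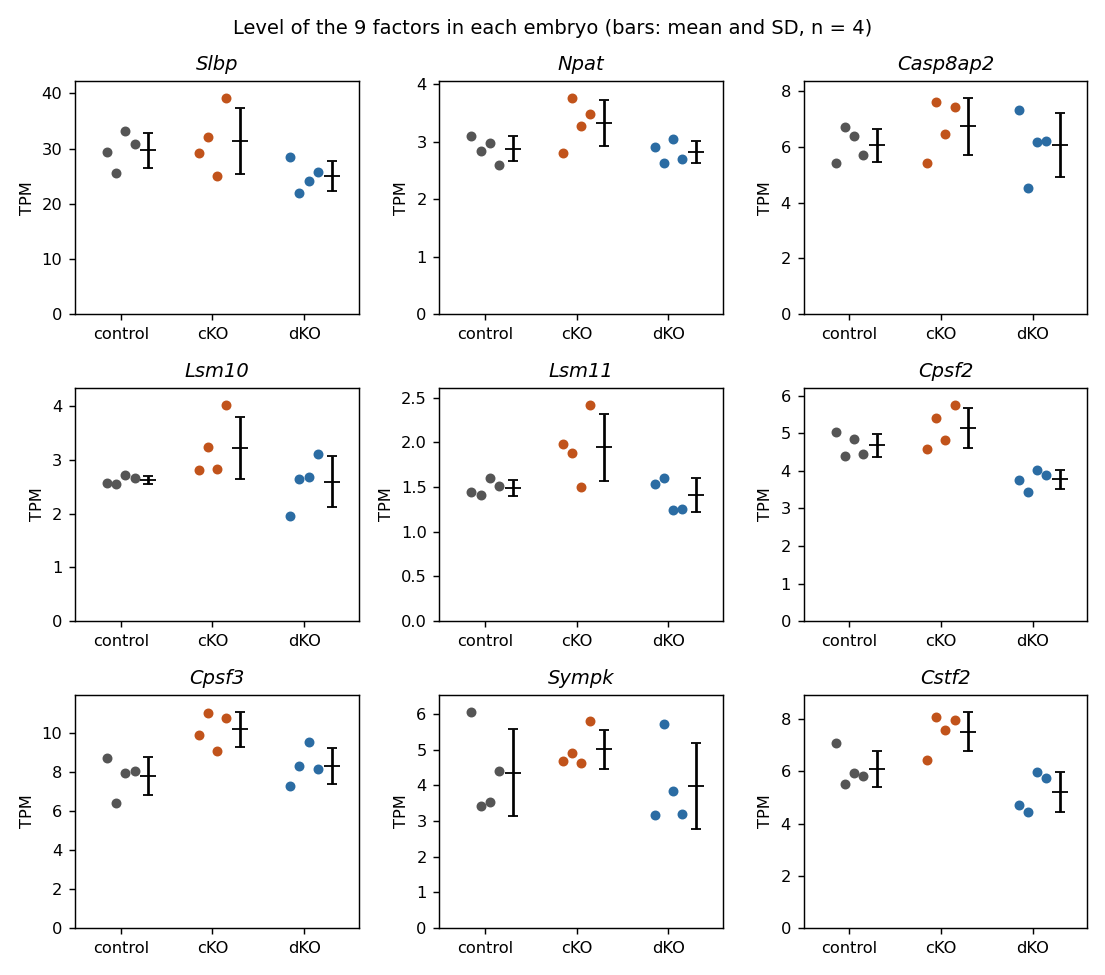
TPM of each of the 9 factors in each of 12 embryos, grouped by genotype, with the mean and SD of 4 embryos beside the points. Most panels overlap between genotypes, while the 4 dKO values of Cpsf2 (3.44 to 4.04) lie below all others and the 4 cKO values of Cpsf3 (9.07 to 11.03) lie above all control values.

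Loss of U11 alone left most of these mRNAs near the common shift. Against control, 9 of 9 factors had a positive log2 difference in cKO, but their median of 0.19 lay below the 0.25 of all tested genes, and 7 of 9 lay below that median. Of the 9, 1 rose, Cpsf3, and 0 fell. Over all tested genes, 34.3% rose and 1.09% fell (limma, Benjamini-Hochberg adjusted p under 0.05). At an unadjusted p under 0.05 there were 3, Cpsf3, Cstf2 and Lsm11. After centring 0 of 9 were called, with 1 at an unadjusted p under 0.05 (Cpsf2, lower), against 6.68% of all genes in either direction.

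Combined loss of U11 and p53 left 0 of 9 factors past the limma threshold against control, with 1 at an unadjusted p under 0.05, Cpsf2. Over all tested genes 5.19% were called. The factors' median log2 difference was -0.05, beside -0.01 for all genes. After centring Cpsf2 alone was called, lower in dKO, against 8.43% of all genes in either direction and 4.69% lower. The comparison of dKO with cKO asks what p53 loss changes where U11 is already lost. Here 9 of 9 factors had a negative difference, and 3 fell: Cstf2, Cpsf2 and Lsm11. Their median of -0.28 lay close to the -0.26 of all tested genes, of which 38.8% fell. After centring 0 of 9 differed between dKO and cKO (0 at an unadjusted p under 0.05), beside 5.93% of all genes called. These comparisons share groups: each mutant is set against the same 4 control embryos.

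**Figure D2:**
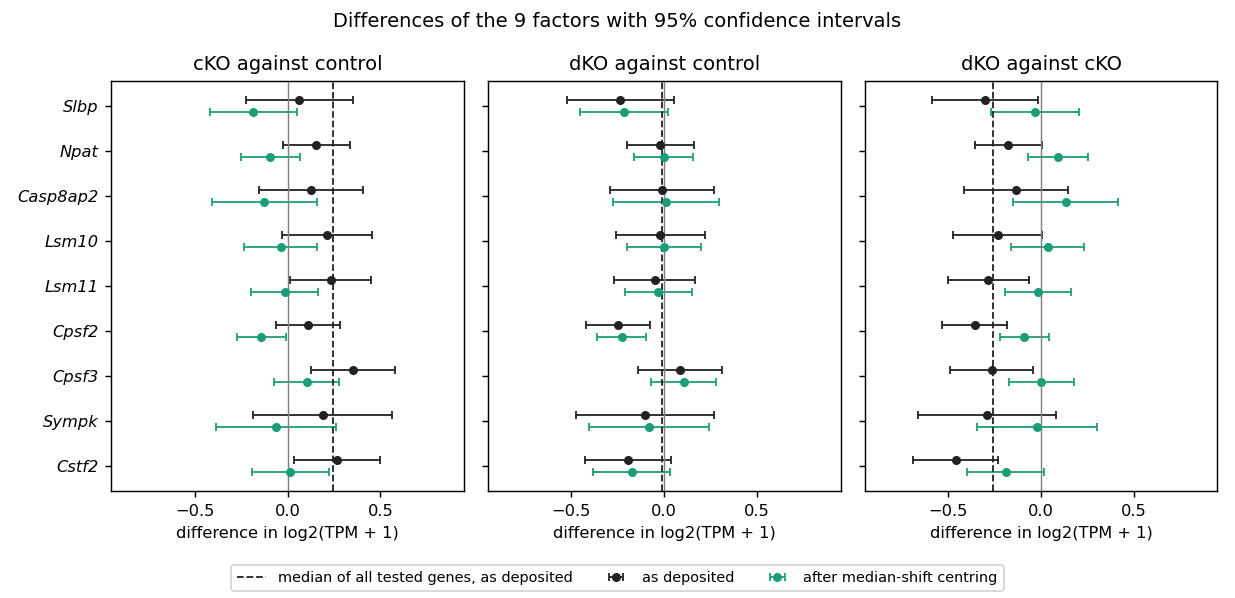
Difference in log2(TPM + 1) of each factor in 3 comparisons, with 95% confidence intervals from limma, as deposited (black) and after median-shift centring (green). The dashed line is the median of all tested genes as deposited (0.25, -0.01 and -0.26): the black points lie around it, and most green intervals span 0, Cpsf2 in dKO against control being the one that is called.

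Npat, at chr9:53537047-53574342 on the plus strand, encodes the coactivator that switches on histone genes. Control embryos gave 3.11, 2.84, 2.98 and 2.600 TPM, cKO embryos 2.80, 3.76, 3.27 and 3.49, and dKO embryos 2.91, 2.63, 3.04 and 2.70. The cKO values reached higher than the others, and all 3 groups overlapped. Its log2 difference in cKO was 0.16 (95% interval -0.025 to 0.34, limma adjusted p = 0.152), and in dKO against control -0.022 (interval -0.20 to 0.16, limma adjusted p = 0.919). Npat starts 307 bases from Atm, the DNA damage kinase gene, which is read in the other direction. Atm, with a mean of 10.3 TPM, was called in neither mutant against control (limma adjusted p = 0.708 and 0.173). Its 4 dKO values lay below the 4 of control, as in 8.44% of tested genes.

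Casp8ap2, at chr4:32615451-32653265 on the plus strand, encodes FLASH, which joins transcription and 3′ end processing. The controls had 5.42, 6.71, 6.38 and 5.72 TPM, the cKO embryos 5.42, 7.62, 6.45 and 7.41, and the dKO embryos 7.30, 4.53, 6.17 and 6.21. The dKO embryos spanned both the lowest value of all 12 and one near the top, and no group stood apart. Its log2 difference was 0.12 in cKO (limma adjusted p = 0.441) and -0.011 in dKO (limma adjusted p = 0.977), with intervals from -0.16 to 0.40 and from -0.29 to 0.27. True differences anywhere inside those intervals remain compatible with these values. The ratio of Casp8ap2 to Npat within an embryo was 2.11 ± 0.263 (control), 2.01 ± 0.0819 (cKO) and 2.14 ± 0.340 (dKO; SD, n = 4 each).

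The ring proteins of the U7 snRNP had the lowest mean mRNA levels of the set, with Lsm10 not separated from Npat. Lsm10, at chr4:126096623-126098584 on the plus strand, was tight in control at 2.56, 2.56, 2.71 and 2.66 TPM. It stood at 2.80, 3.24, 2.82 and 4.02 in cKO and at 1.96, 2.64, 2.68 and 3.10 in dKO. Every cKO embryo lay above every control embryo, as did 32.7% of tested genes, and the difference of 0.21 was not called (limma adjusted p = 0.144). After centring it was -0.037 and the groups overlapped.

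Lsm11, at chr11:45928269-45944935 on the minus strand, gave control values of 1.44, 1.41, 1.60 and 1.51 TPM, cKO values of 1.98, 1.88, 1.499 and 2.42, and dKO values of 1.53, 1.61, 1.25 and 1.25. Control and dKO overlapped, and cKO embryo 3 lay among the controls. Lsm11 fell by 0.28 from cKO to dKO (limma adjusted p = 0.0404), to 72.5% of the cKO mean in TPM. That call was lost without control embryo 4, cKO embryo 1, 2 or 4, or dKO embryo 3 or 4 (limma adjusted p from 0.0534 to 0.112). It was also lost with no filter (limma adjusted p = 0.0663), with 2 groups only (0.0736) and with the replicate block (0.0748). After centring the difference was -0.015. The ratio of Lsm10 to Lsm11 was 1.76 ± 0.0523 (control), 1.67 ± 0.192 (cKO) and 1.89 ± 0.533 (dKO; SD, n = 4 each), with overlap throughout and the widest spread in dKO. The U7 RNA itself, Rnu7, was listed at 0 in all 12 libraries, so its level was not measured here.

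Slbp, at chr5:33634952-33652574 on the minus strand, encodes the stem-loop binding protein, a protein that normally accumulates in S phase. Control embryos gave 29.3, 25.6, 33.2 and 30.8 TPM, cKO embryos 29.1, 32.2, 25.1 and 39.1, and dKO embryos 28.4, 21.9, 24.2 and 25.7. Embryo 4 of cKO was the highest of all, the dKO values were low, and the groups overlapped. The log2 difference was 0.064 in cKO (interval -0.22 to 0.35, limma adjusted p = 0.706) and -0.24 in dKO (interval -0.52 to 0.051, limma adjusted p = 0.350). After centring the differences were -0.18 and -0.22, with limma adjusted p = 0.359 and 0.243. The sign in cKO against control turned with the scaling, and also without control embryo 2 (-0.0035) or cKO embryo 4 (-0.045). Slbp shares 474 bases with Gm10459 on the other strand, which had a mean of 0.165 TPM.

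Among the cleavage factors, the nuclease gene Cpsf3, at chr12:21285391-21315056 on the plus strand, was the one that rose in cKO. The control values were 8.71, 6.41, 7.95 and 8.06 TPM, those of cKO 9.87, 11.03, 9.07 and 10.8, and those of dKO 7.26, 8.32, 9.52 and 8.13. All 4 cKO embryos stood above all 4 controls, as in 32.7% of tested genes, while dKO overlapped both. The cKO mean was 131% of control, a log2 difference of 0.35 ± 0.103 (SE, limma adjusted p = 0.0224), which was not called without control embryo 2, cKO embryo 2 or cKO embryo 4 (limma adjusted p = 0.0657, 0.0688 and 0.0594), nor with the replicate block (0.0555). After centring it was 0.10 (limma adjusted p = 0.518). Cpsf3 shares 894 bases with Itgb1bp1 on the other strand. Itgb1bp1 moved with it, by 0.30 in cKO against control (limma adjusted p = 0.0473), and whether reads of the gene pair were separated by strand is not given in the sources used here.

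Cpsf2, the partner without nuclease activity, lies at chr12:101975988-102006424 on the plus strand. Control embryos held 5.03, 4.41, 4.84 and 4.45 TPM, cKO embryos 4.57, 5.41, 4.82 and 5.75, and dKO embryos 3.75, 3.44, 4.04 and 3.89. The 4 dKO embryos were the 4 lowest of all 12. Against control, 8.44% of tested genes lay lower in this way. The dKO mean was 80.7% of control. The log2 difference of -0.25 ± 0.0797 (SE) was not called as deposited (limma adjusted p = 0.0943), nor after protein-coding rescaling, which gives each library an equal sum over protein-coding genes (limma adjusted p = 0.0688). It was called after centring, at -0.23 (limma adjusted p = 0.0373), and after quantile normalization, by which 4.82% of all genes fell (limma adjusted p = 0.0443). When 1 embryo at a time was left out after centring, the call stood in 2 of 12 fits, those without dKO embryo 1 or 4. With the replicate block and centring it was lost (limma adjusted p = 0.0888).

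Set against cKO, Cpsf2 in dKO fell by 0.36 (limma adjusted p = 0.00558) with no overlap, beside 32.8% of tested genes that lay lower without overlap. After centring that difference was -0.089 (limma adjusted p = 0.403). Cpsf2 shares 1081 bases with Ndufb1-ps on the other strand, which is more abundant (mean 67.5 TPM). Ndufb1-ps was called in none of the 3 comparisons (limma adjusted p = 0.185, 0.961 and 0.214).

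Sympk, the scaffold gene at chr7:19024377-19054618 on the plus strand, had the widest spread among control and among dKO embryos. Control embryos gave 6.06, 3.41, 3.52 and 4.41 TPM, cKO embryos 4.70, 4.90, 4.64 and 5.80, and dKO embryos 3.17, 5.73, 3.85 and 3.21. Control embryo 1 and dKO embryo 2 stood high within their groups, and the coefficient of variation was 28.1% in control and 30.2% in dKO, against 10.7% in cKO. Its intervals were the widest of the 9, from -0.18 to 0.56 for cKO and from -0.48 to 0.27 for dKO against control, and it was called in neither (limma adjusted p = 0.382 and 0.794). Of the 50-base stretches of its annotated transcripts, 3.69% also occur in transcripts of other genes, the highest share of the 9.

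Cstf2, at chrX:134059187-134086819 on the plus strand, had control values of 7.09, 5.52, 5.95 and 5.84 TPM, cKO values of 6.44, 8.09, 7.61 and 7.98, and dKO values of 4.69, 4.43, 5.99 and 5.76. Every dKO embryo stood below every cKO embryo, as in 32.8% of tested genes, and control overlapped both. Its difference from control was 0.26 in cKO (limma adjusted p = 0.0679) and -0.20 in dKO (limma adjusted p = 0.336). From cKO to dKO it fell by 0.46 (limma adjusted p = 0.00661), the largest difference among the 9, and after centring this was -0.19 (interval -0.40 to 0.015, limma adjusted p = 0.2498). Because the gene is X-linked, the sex of the embryos was read from Xist and Ddx3y. Xist was expressed in 2 of 4 control, 3 of 4 cKO and 1 of 4 dKO embryos. Within the unequal groups, the 1 cKO embryo without Xist had 7.61 TPM of Cstf2, inside the cKO range, and the 1 dKO embryo with Xist had 5.99, the highest of dKO. The part of sex in the difference was not tested.

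Cstf2 has an autosomal paralog, Cstf2t, whose protein can stand in for it in polyadenylation. The pair was singled out after its values were seen, so it is given as a description. Cstf2t levels in TPM were 6.73, 5.60, 5.95 and 5.39 (control), 6.70, 7.80, 6.45 and 8.31 (cKO), and 9.05, 7.69, 7.87 and 7.65 (dKO). All 4 dKO embryos lay above all 4 controls, as in 5.14% of tested genes. Cstf2t rose by 0.39 (limma adjusted p = 0.0329), and by 0.41 after centring (limma adjusted p = 0.00541). As deposited, the call was lost without control embryo 2, 3 or 4 or dKO embryo 1, 3 or 4 (limma adjusted p from 0.0572 to 0.105). It was also lost with no filter (0.0699), with the replicate block (0.0879) and against a minimum log2 change of 1, while with block and centring together it stood (0.0173). The ratio of Cstf2 to Cstf2t was near 1 in control at 1.05, 0.986, 0.999 and 1.083, and in cKO at 0.962, 1.04, 1.18 and 0.960. In dKO it was 0.519, 0.576, 0.760 and 0.752, below every other embryo. Over all pairs of tested genes, the dKO ratios did not overlap, in either direction, for 15.2% against control and 16.0% against cKO. The summed level of Cstf2 and Cstf2t was 12.02 ± 1.25 TPM (control), 14.8 ± 1.495 (cKO) and 13.3 ± 0.801 (dKO; SD, n = 4 each), with overlap between all groups. The genes can be told apart in sequence: 0 of the 50-base stretches of Cstf2t occur in another gene, and 0.445% of those of Cstf2 do.

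**Figure D3:**
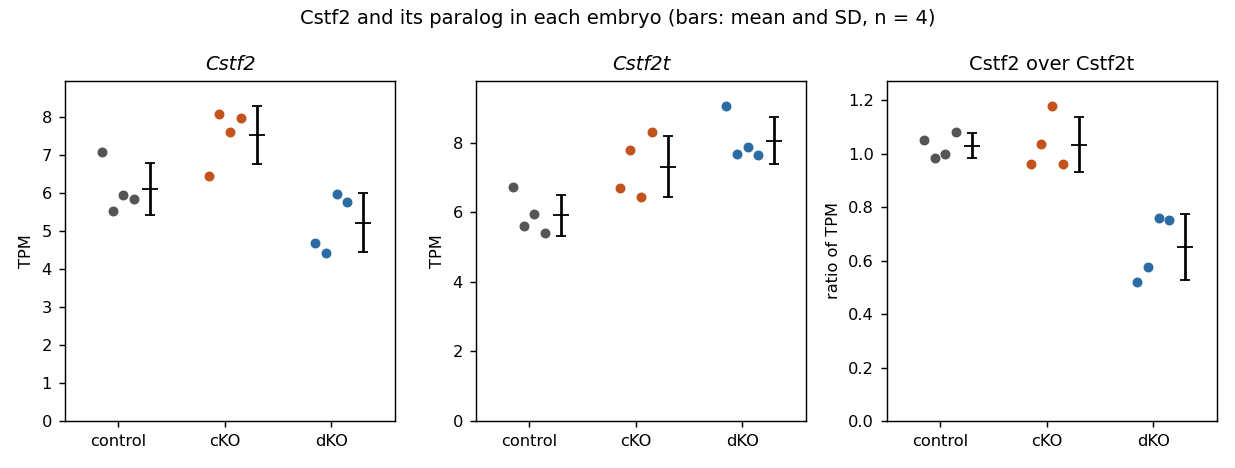
TPM of Cstf2, TPM of its paralog Cstf2t and their ratio within each embryo, by genotype, with the mean and SD of 4 embryos. The ratio lies between 0.960 and 1.18 in the control and cKO embryos and between 0.519 and 0.760 in the dKO embryos.

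Ratios within a library do not depend on its scaling, so the balance among the 9 factors was examined over their 36 pairs. The groups did not overlap for 2 pairs (5.56%) in cKO against control, 3 (8.33%) in dKO against control and 2 (5.56%) in dKO against cKO. Over all pairs of tested genes the shares were 19.3%, 15.2% and 16.0%. The nuclease and its partner were the pair that parted from control in both mutants: Cpsf3 over Cpsf2 was 1.73, 1.46, 1.64 and 1.81 (control), 2.16, 2.04, 1.88 and 1.87 (cKO), and 1.94, 2.42, 2.36 and 2.09 (dKO). Each of the 8 mutant embryos stood above each control. In cKO the ratio of Slbp to Lsm11 was 16.2 ± 1.03, below the 19.9 ± 1.16 of control (SD, n = 4 each). In dKO, Npat over Cpsf2 (0.747 ± 0.0363 against 0.615 ± 0.0244) and Cpsf3 over Cstf2 (1.61 ± 0.197 against 1.28 ± 0.0992) were above control (SD, n = 4 each). Against cKO, the dKO embryos were higher in Npat over Cstf2 (0.548 ± 0.0708 against 0.442 ± 0.0155) and in Casp8ap2 over Cstf2 (1.17 ± 0.257 against 0.890 ± 0.0526). In these last 4 ratios a lower Cpsf2 or Cstf2 value stands in the denominator.

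The RNAs that these factors serve were lower in both mutants. The summed TPM of 70 replication-dependent histone symbols was 24513, 17066, 21723 and 20784 (control), 11796, 12000, 11772 and 15981 (cKO), and 13097, 13351, 12915 and 14116 (dKO). No mutant embryo reached the lowest control, and the means were 61.3% and 63.6% of control. Of 67 histone genes tested, 54 fell and 2 rose in cKO, and 42 fell and 2 rose in dKO (limma adjusted p under 0.05). Among all tested genes 1.09% and 3.4% fell. The histone symbols were taken by name, as those starting Hist1h to Hist4h, and include a pseudogene, Hist3h2bb-ps. Some varied sharply within a group, such as Hist1h2al at 225 TPM in control embryo 1 and 0.21 to 0.90 in the other controls. Sequence shared between histone genes was not examined, so their calls are not counted as independent. Between the mutants 0 histone genes were called in limma as deposited, with 5 at an unadjusted p under 0.05. After centring 13 were higher in dKO, beside 2.1% of all genes. Genes of DNA replication and its S-phase control are given beside the histone genes. Of 17 listed, 2 fell and 1 rose in cKO and 2 fell in dKO, with medians of 0.033 and -0.10, while the histone medians were -0.65 and -0.65. The S-phase list too lay below the common shift in cKO, with 16 of 17 genes under the median of all genes. After centring its medians were -0.22 and -0.081, beside histone medians of -0.90 and -0.63. Of the 17, 4 were then lower and 0 higher in cKO, and 3 were lower in dKO. Over all genes 2.96% and 4.69% were lower after centring. At an unadjusted p under 0.05 in limma, 8 of the 17 were lower in each mutant after centring. As deposited, 2 in cKO and 8 in dKO were lower at that unadjusted threshold. Of 7 mitotic genes, 7 lay under the median of all genes in each mutant, with centred medians of -0.28 and -0.24. None of the 7 was called in limma against control with either scaling, although after centring 5 in cKO and 4 in dKO were lower at an unadjusted p under 0.05. The part of cycling cells in the histone difference was not tested.

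Slbp was therefore set against histone RNA within each embryo, as a ratio chosen with the histone values known. Control embryos had 1.20, 1.499, 1.53 and 1.48 TPM of Slbp per 1000 TPM of histone RNA, cKO embryos 2.47, 2.68, 2.14 and 2.45, and dKO embryos 2.17, 1.64, 1.88 and 1.82. Every mutant embryo exceeded every control, and cKO and dKO overlapped at dKO embryo 1. The summed Cpsf2, Cpsf3, Sympk and Cstf2 followed the same order, at 1.09 ± 0.0541 (control), 2.18 ± 0.229 (cKO) and 1.60 ± 0.168 (dKO) per 1000 TPM of histone RNA (SD, n = 4 each). In that ratio the dKO embryos lay between the other groups, below every cKO embryo. These higher ratios stand beside a lower histone sum, while Slbp itself was not called. The histone sum alone parted every mutant embryo from every control, so the separation does not single out Slbp or the cleavage factors. The share of all genes whose ratio to histone RNA does the same was not computed.

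**Figure D4:**
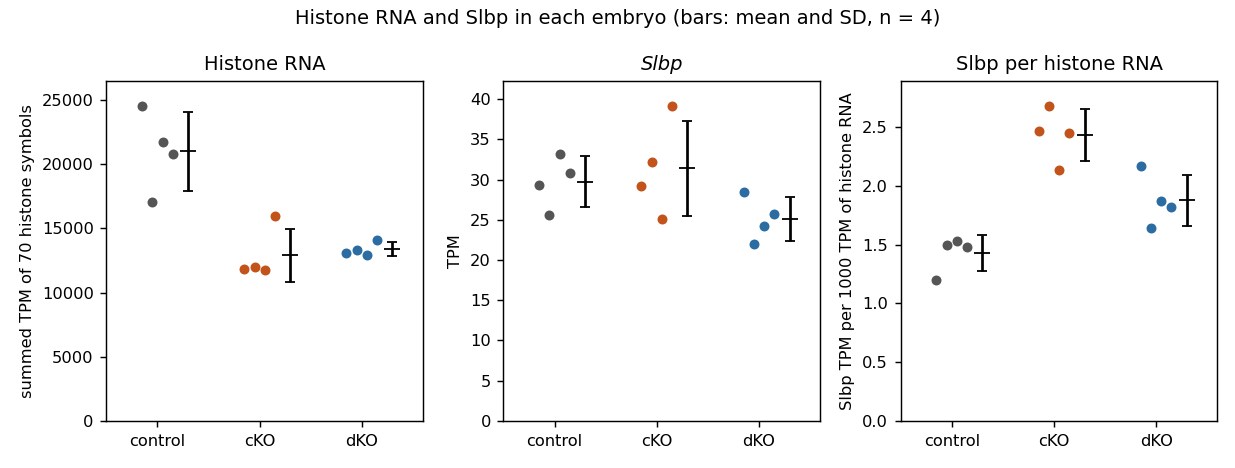
Summed TPM of 70 histone symbols, TPM of Slbp, and Slbp per 1000 TPM of histone RNA in each embryo, by genotype, with the mean and SD of 4 embryos. Histone RNA lies from 17066 to 24513 in control and from 11772 to 15981 in the mutants, Slbp overlaps between groups, and the ratio lies from 1.20 to 1.53 in control and from 1.64 to 2.68 in the mutants.

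Of 47 further genes of the pathway, listed from general knowledge, 45 passed the filter. Rnu7 was listed at 0 throughout and Zfp473, another U7 snRNP partner, had a mean below 1 TPM. As deposited, 14 rose and 1 fell in cKO against control, 4 rose and 2 fell in dKO against control, and 14 fell and 0 rose in dKO against cKO. Over all genes, in the same order, 34.3% rose and 1.09% fell, 1.79% rose and 3.4% fell, and 38.8% fell and 0.612% rose. The medians of the pathway genes were 0.21, -0.066 and -0.25, beside 0.25, -0.01 and -0.26 for all genes. After centring, the calls were 2 higher and 2 lower, 7 higher and 2 lower, and 3 higher and 1 lower. Over all genes, 6.68%, 8.43% and 5.93% were then called in either direction.

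Among genes for histone transcription, Ccne2, which encodes cyclin E2, the activating partner of the kinase that phosphorylates NPAT, fell by 0.74 in dKO against control, 6.91 ± 0.399 TPM against 3.73 ± 0.491 (limma adjusted p = 0.00621; SD, n = 4 each). In cKO its mean was 5.72, a difference of -0.26 that was not called as deposited (limma adjusted p = 0.133) and of -0.50 that was called after centring (limma adjusted p = 0.0269). Pou2f1, the octamer-binding factor that acts on histone H2B promoters, rose from 3.89 to 6.22 TPM in cKO (0.56, limma adjusted p = 0.0111) and fell by 0.55 from cKO to dKO (limma adjusted p = 0.0096). Neither Pou2f1 call held after centring (limma adjusted p = 0.191 and 0.209). Of 9 tested U7 snRNP, stem-loop and cap partners, such as Eri1, Snrpb and Snrpd3, 0 were called in either mutant against control as deposited, with 0 at an unadjusted p under 0.05 in limma. In cKO, 8 of the 9 lay below the median of all genes. After centring their median there was -0.18, and 0 were called in limma in either mutant, with 3 in cKO and 1 in dKO lower at an unadjusted p under 0.05.

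The polyadenylation machinery that shares the cleavage complex gave most of the pathway's calls against control as deposited. Of its 17 genes, 8 rose and 1 fell in cKO, where 34.3% of all genes rose. In dKO against control 3 rose and 1 fell, beside 1.79% and 3.4% of all genes. Its cKO median of 0.24 lay at that of all genes. After centring 1 was higher and 1 lower in cKO, 2 of the pathway's 4 calls, and 5 were higher and 1 lower in dKO. Over all genes 6.68% and 8.43% were called after centring. Cstf3, whose protein bridges the CSTF subunits, rose from 6.19 ± 0.359 to 10.3 ± 0.686 TPM in cKO (limma adjusted p = 0.000368) and to 8.70 ± 0.948 in dKO (limma adjusted p = 0.0125; SD, n = 4 each). Pcf11, a cleavage and transcription termination factor, rose from 17.2 ± 0.732 to 25.3 ± 2.74 in cKO (limma adjusted p = 0.00619) and to 30.8 ± 4.87 in dKO (limma adjusted p = 0.0023; SD, n = 4 each). Ssu72, a phosphatase of RNA polymerase II, fell from 9.74 ± 0.505 to 7.46 ± 0.745 in cKO (limma adjusted p = 0.0151) and to 5.69 ± 0.699 in dKO (limma adjusted p = 0.00159; SD, n = 4 each). The Cstf3 and Ssu72 calls stood after centring in both mutants, and that of Pcf11 in dKO alone (limma adjusted p = 0.140 in cKO). Against cKO, Pabpn1, the nuclear poly(A) binding protein, fell by 0.63 in dKO (limma adjusted p = 0.00168), also after centring (-0.36, limma adjusted p = 0.0275) but not with the replicate block and centring (0.0770). Fip1l1, a subunit of the polyadenylation complex, fell by 0.47 (limma adjusted p = 0.00194), and after centring by 0.20, which was not called (limma adjusted p = 0.168).

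Among genes for histone mRNA translation and decay, Dcp2, the decapping enzyme, had the largest increase of the pathway in cKO. Its levels in TPM were 4.47, 3.39, 4.28 and 4.00 (control), 7.91, 10.8, 9.59 and 10.3 (cKO), and 8.23, 8.35, 6.85 and 6.40 (dKO). Every mutant embryo was above every control, as in 32.7% (cKO) and 5.14% (dKO) of tested genes. The log2 difference was 1.079 in cKO (limma adjusted p = 8.7e-05) and 0.74 in dKO (limma adjusted p = 0.00278), and both calls stood after centring. Tut4, a terminal uridylyltransferase, fell by 0.60 from cKO to dKO (limma adjusted p = 0.00302), and after centring by 0.33, which was not called (limma adjusted p = 0.0901).

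**Figure D5:**
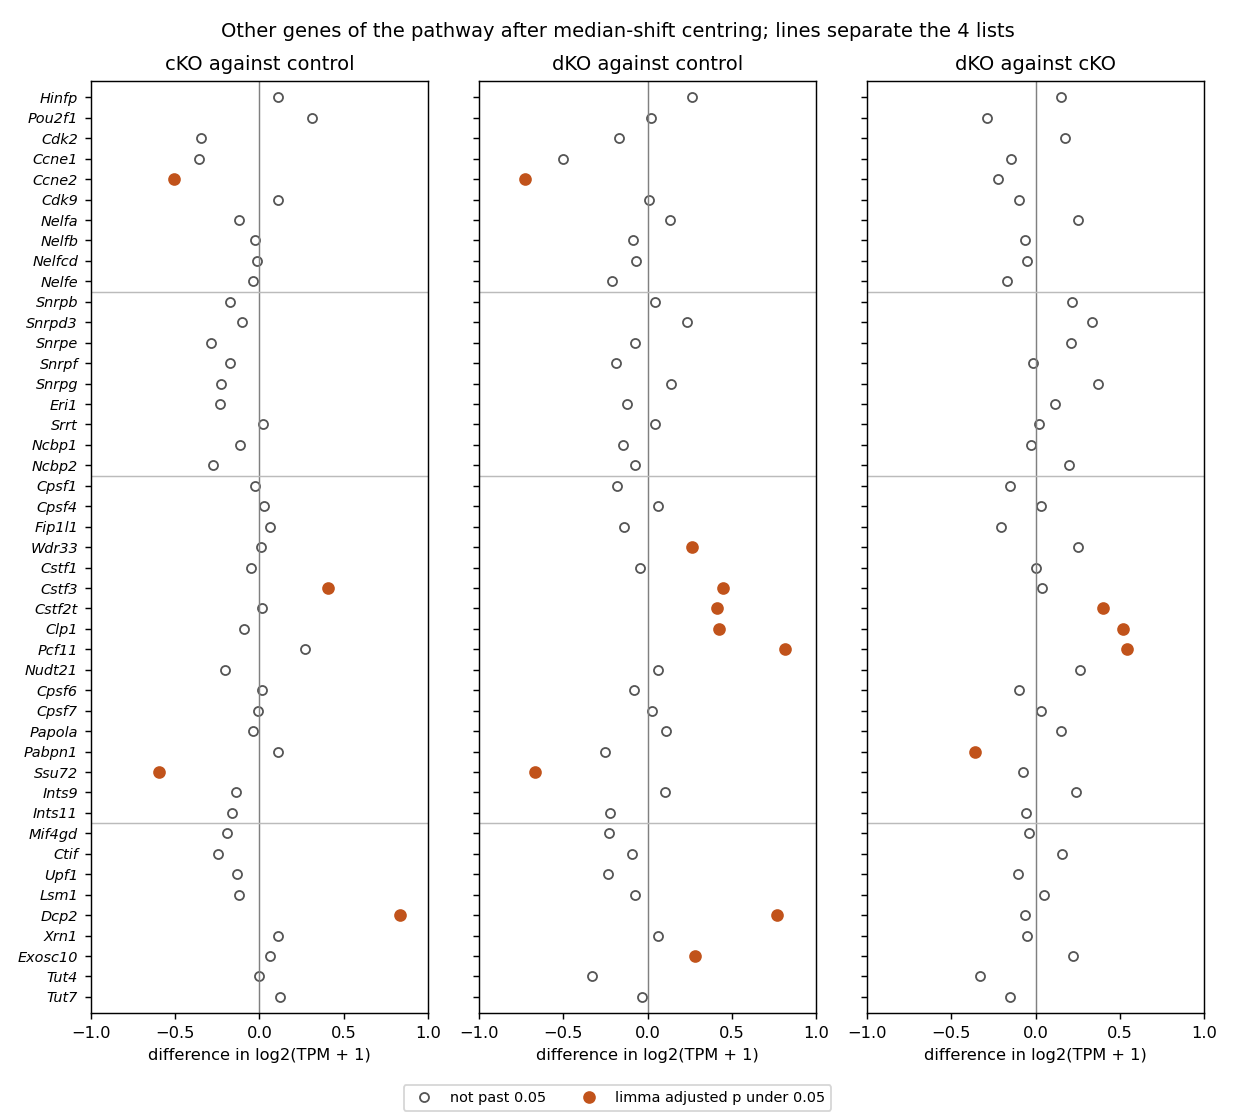
Difference in log2(TPM + 1) after median-shift centring of the 45 tested pathway genes in 3 comparisons, with filled points for limma adjusted p under 0.05 and grey lines between the transcription, U7 and cap, polyadenylation, and decay lists. Filled points number 4, 9 and 4 from left to right, with Dcp2 (0.83 and 0.76) and Pcf11 (0.81 in dKO) farthest to the right.

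The genes whose centred profile over the 12 embryos was most like a factor's were taken from the 5060 eligible genes averaging 5 TPM or more, by Pearson's r, as a description. Slbp was most like Yeats4 (r = 0.976) and Uba2 (0.960), and Cpsf2 most like Ncapg2 (0.967) and Pgk1 (0.957). Sympk was most like Bag6 (0.938) and Midn (0.937), Cstf2 like Ldha (0.899) and Galnt1 (0.872), and Casp8ap2 like Ebna1bp2 (0.897). The closest profiles were weaker for Cpsf3, with Alas1 (0.893) and Xpo5 (0.860), and Npat, with Pwp1 (0.891) and Zfp317 (0.855). They were weakest for Lsm11, with Slc25a17 (0.844) and Dus1l (0.840), and Lsm10, with Acot13 (0.836) and Kif4 (0.810). The points share 12 libraries, and the highest of 5060 correlations is high by selection.

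The levels of some markers of other cells differed between genotypes beside these results. The summed level of 6 microglia markers was 7.22 to 8.25 TPM in control, 26.7 to 38.5 in cKO and 8.42 to 10.8 in dKO, with 5 of 6 called higher in cKO both as deposited and after centring. That of 6 vessel markers was 9.27 to 11.97, 18.2 to 24.0 and 11.6 to 18.7, with 5 of 5 tested called higher in cKO and 3 of 5 after centring. That of 8 neuron markers was 229 to 253, 300.3 to 368 and 157 to 240.2, with 5 of 8 called higher in cKO and 6 of 8 lower in dKO than in cKO. After centring these neuron counts were 0 of 8 and 2 of 8. In dKO against control 1 of 8 neuron markers was called lower, and 2 of 8 after centring. As deposited, 34.3% of all genes rose in cKO and 38.8% fell from cKO to dKO. The summed level of 4 choroid plexus markers was 40.9 to 99.5 TPM in control, 71.3 to 247 in cKO and 66.4 to 293 in dKO. Of 3 tested, 1 was called higher in cKO and 0 after centring. For 6 ventral telencephalon markers the sums were 1.42 to 2.05, 2.78 to 4.27 and 1.48 to 3.15. The 1 tested, Dlx1, was called higher in cKO and lower in dKO than in cKO, and in neither after centring. The 5 red cell markers summed to 1604 to 2527 in control, 1915 to 2595 in cKO and 1736 to 2433 in dKO. Of these 5, 0 were called in any comparison with either scaling. None of these markers was at 0 in all libraries. The 8 radial glia markers summed to 253 to 280 in control, 298 to 351 in cKO and 274 to 280 in dKO. In cKO against control 2 of them were called higher and 1 lower, and after centring 0 higher and 2 lower. The 4 intermediate progenitor markers summed to 35.7 to 50.1, 35.9 to 47.0 and 32.9 to 41.3. Of these, 1 was called higher and 1 lower in cKO, and after centring 0 higher and 2 lower. In dKO against control, 0 radial glia markers were called and 1 intermediate progenitor marker was lower, with either scaling. The part of cell composition in the differences of the 9 factors was not tested.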

How the data were processed

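RNA of 12 embryonic pallia (4 control, 4 cKO, 4 dKO) was sequenced as stranded total RNA libraries, per the labels' protocols. The authors deposited 1 value per gene symbol. The unit, TPM, was inferred from the deposited values, which sum to 1000000 in each library. HISAT2 and mm10 are named in the submitters' processing notes, without versions or settings, and the counting tool, annotation and use of strand are not given in the sources used here. TPM keeps no depth, so depth is unknown. Short structural RNAs take most of each total, so a change in them moves all other values.

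The test was limma 3.58.1 (lmFit, eBayes with trend; R 4.3.3) on log2(TPM + 1) over the 11764 genes averaging 1 TPM or more, 3 groups in one fit, with Benjamini-Hochberg adjusted p under 0.05 over all tested genes. This scale understates changes of low genes such as Lsm11. Genes were placed with GENCODE M21 on GRCm38, in which 54183 of the 54735 symbols were found. Rnu11 and Trp53 were compared by exact permutation over 70 assignments. The procedure was tested on simulated data.

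The factors, lists and alternatives were chosen with earlier results of these data known. Named pathway genes are, per comparison, up to 4 of the largest increases and decreases that were called and whose groups lay apart, and up to 2 most similar genes are named per factor. Some genes are not reported here. Alternatives were a pseudocount of 0.1, no filter, a mean of 5 TPM, median-shift centring, quantile normalization, protein-coding rescaling, fits of 2 groups, sample weights, a minimum log2 change of 1, a replicate block, and omission of each embryo, the last also with centring (added after seeing the data).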

Additional observations from a re-analysis of the deposited data

Results flagged for a closer look

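In 5 of 99 groups of 4 embryos examined, 1 embryo stood apart from the other 3 by Dixon's ratio of its gap to the group's range, where 4.95 are expected by chance at 1 in 20. The histone RNA sum of cKO embryo 4 was 15981 TPM against 11772 to 12000 in the other 3 (ratio 0.946). The library of cKO embryo 4 also had the largest median shift of all, 0.315, against 0.0762 to 0.200 in the other cKO libraries. The part of this shift in the high sum was not tested. Slbp per 1000 TPM of histone RNA was 1.20 in control embryo 1 and 1.48 to 1.53 in the other controls (ratio 0.856). Ssu72 stood at 6.35 TPM in cKO embryo 1 and at 7.76 to 7.96 in the others (ratio 0.875). Cstf3 stood at 5.66 TPM in control embryo 4 and at 6.30 to 6.41 in the others (ratio 0.847). Cstf2t stood at 9.05 TPM in dKO embryo 1 and at 7.65 to 7.87 in the others (ratio 0.844). None of the 9 factors was among them.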

How the results depend on the processing

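Depth is unknown, and 4 embryos a group limit these comparisons: as deposited, each factor's 95% interval is wider than 0.3 on the log2 scale. The scaling of the libraries decided most calls. In cKO against control, 1 factor as deposited became 0 with median-shift centring, quantile normalization, protein-coding rescaling or a minimum log2 change of 1, and 4 with sample weights. Leaving out 1 embryo gave 0 to 3: 0 without control 2, cKO 2 or cKO 4, 2 without control 1 or cKO 3, and 3 without cKO 1. In dKO against control, 0 became 1 (Cpsf2) with centring or quantile normalization, and stayed 0 without any 1 embryo. In dKO against cKO, 3 became 0 with those 3 scalings or a minimum change, 1 with a mean of at least 5 TPM, where 4 factors were tested, and 6 with sample weights. It ranged from 2 to 5 without 1 embryo, with 5 without cKO 3, and Cpsf2 and Cstf2 were called in each. Centring without 1 embryo gave 0, 0 to 1 (1 without dKO 1 or dKO 4) and 0.

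The replicate numbers gave no sign of pairing: 0 of 12 same-number pairs correlated above 0.1, and 1 of 12 libraries matched its own number best. Whether embryos shared litters or batches cannot be told from these values. With the replicate block, the counts were 0, 0 and 2, and with the block and centring 0, 0 and 0.

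Signs turned mostly where a difference was smaller than the common shift. With median-shift centring, with or without the replicate block, cKO against control became -0.18 (Slbp), -0.094 (Npat), -0.12 (Casp8ap2), -0.037 (Lsm10), -0.016 (Lsm11), -0.14 (Cpsf2) and -0.060 (Sympk). In the same settings Casp8ap2 became 0.0082 in dKO against control, and dKO against cKO became 0.091 (Npat), 0.13 (Casp8ap2), 0.036 (Lsm10) and 0.0023 (Cpsf3). Trp53 in cKO against control became -0.070 with centring. Quantile normalization gave -0.16 (Slbp), -0.13 (Npat), -0.13 (Casp8ap2), -0.077 (Lsm10), -0.039 (Lsm11), -0.16 (Cpsf2) and -0.090 (Sympk) in cKO against control. It gave 0.014 (Casp8ap2) in dKO against control, and 0.12 (Npat), 0.14 (Casp8ap2), 0.061 (Lsm10), 0.013 (Cpsf3) and 0.00093 (Sympk) in dKO against cKO. Protein-coding rescaling gave -0.087 (Slbp), -0.011 (Casp8ap2) and -0.022 (Cpsf2) in cKO against control, 0.029 (Npat), 0.046 (Casp8ap2) and 0.029 (Lsm10) in dKO against control, and 0.057 (Casp8ap2) in dKO against cKO. Sample weights gave 0.024 (Npat), 0.014 (Casp8ap2) and 0.027 (Lsm10) in dKO against control. Without 1 embryo, signs turned for Slbp in cKO against control (-0.045 to 0.16). In dKO against control they turned for Npat (-0.057 to 0.0059), Casp8ap2 (-0.095 to 0.10), Lsm10 (-0.088 to 0.069) and Sympk (-0.26 to 0.038). None of these differences was called. The causes were not tested.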
